A study of Mus musculus with 4 samples.

Results

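The chaperonins described here are the 8 subunit genes of the cytosolic chaperonin CCT (Tcp1, Cct2, Cct3, Cct4, Cct5, Cct6a, Cct7 and Cct8) and the mitochondrial pair Hspd1 (HSP60) and Hspe1 (HSP10). They were taken by name from a fixed list of 10 genes, and all 10 were found among the 40213 gene symbols of the deposited files. RNA sequencing was carried out on RAW264.7 cells, a mouse macrophage line, after 48 h in culture with CuNZ@Gel (n = 2 libraries) or with Gel (n = 2 libraries). Groups were read from the sample titles, because the treatment text of every library names CuNZ@Gel alone. What CuNZ stands for is not spelled out in the labels, and no label ties the replicates to different cultures. The spread behind the p-values could therefore be technical alone. The comparison asks how chaperonin transcripts in these macrophages differ between the libraries titled CuNZ@Gel and those titled Gel. The labels do not say whether Gel is the same gel without CuNZ.

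CCT, also called TRiC, is a barrel of stacked rings in which every ring holds 1 copy of each of the 8 related subunits. It encloses newly made cytosolic proteins, above all actin and tubulin, and uses ATP to help them fold. HSP60 builds the equivalent chamber in the mitochondrial matrix, where HSP10 closes it as a detachable lid, whereas CCT carries its own lid. Prefoldin hands unfolded actin and tubulin to CCT, and the mitochondrial HSP70 system works upstream of HSP60 on proteins imported into the matrix.

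Recovered library totals lay between 13709000 and 14868000 reads, rounded. Per group, the reads behind a chaperonin gene ranged from 4544 in CuNZ@Gel and 5515 in Gel for Hspe1 to 18449 and 19619 for Hspd1. Levels are given as scaled CPM, which is CPM divided by a further factor for each library. The make-up of the libraries differed between groups. Ribosomal protein genes took 4.95% and 5.4% of the scaled CPM in the CuNZ@Gel libraries, against 10.1% and 9.77% in the Gel libraries, and the rRNA-like transcript Gm26917 took 7.18% and 7.1%, against 11.8% and 11.9%. Of 10 macrophage markers, 9 passed the filter on low values, with a summed level of 9160 and 8920 scaled CPM in CuNZ@Gel and 5670 and 5830 in Gel. Lyz2 carried most of that sum, which without it was 3160 and 3150 in CuNZ@Gel and 2660 and 2680 in Gel. The markers did not move together: 6 were called higher, with Itgam, Lyz2, Adgre1 and Ptprc at log2 changes of 1.89, 0.93, 0.83 and 0.64 (limma adjusted p from 6.91e-16 to 5.08e-09), and Cd68 and Fcgr1 were called lower (-0.23 and -0.82, limma adjusted p = 0.00192 and 1.56e-08). Of all 11588 tested genes, 32.2% were called higher and 34.8% lower at the same adjusted p under 0.05. The call of Cd68 was lost with total reads only (limma adjusted p = 0.583) and with length and GC content corrected for (limma adjusted p = 0.241). Markers of fibroblast, epithelial, endothelial, T, B and NK cells summed to 4.16 and 3.11 scaled CPM in CuNZ@Gel and 0.869 and 1.87 in Gel, with Cd3e and Ncr1 at 0 in all 4 libraries. Among them Pecam1 alone passed the filter on low values, with 2.21 and 1.4 scaled CPM in CuNZ@Gel and 0.0725 and 0.0777 in Gel (log2 change 1.37, limma adjusted p = 1.78e-05). The part that these shifts play in the chaperonin values was not tested, and fewer cells of a type and less RNA per cell cannot be told apart in bulk libraries. The labels name no batch.

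Transcripts of both chaperonins were less abundant with CuNZ@Gel. Of the 10 genes, 8 fell (6 of 8 CCT genes, Hspd1 and Hspe1), at an adjusted p under 0.05 in limma fitted to all 11588 tested genes, and 0 rose (0 also at an unadjusted p under 0.05 and with limma-voom). All 10 genes passed the filter of 1 scaled CPM in 2 libraries. Of all tested genes 67.1% were called by the same rule, 34.8% as lower and 32.2% as higher, and among the 1214 tested genes with a mean log2 value of at least 7, where all the chaperonin genes lie, 43.6% were lower and 34.3% higher. The changes were moderate, from -36.6% for Cct5 to -2.72% for Cct3 in mean scaled CPM, and 0 of the 10 genes passed a test against a minimum fold of 1.5, which 16.9% of all tested genes passed. The CCT genes had a median log2 change of -0.31 and the mitochondrial pair a mean of -0.43, beside a median of -0.03 over all tested genes. The direction and size depend in part on scaling. Under scaling by total reads alone, the median of all genes moved up by 0.18 and the CCT median was -0.12, with 4 CCT genes lower (Cct2, Cct4, Cct5 and Cct8) and 2 higher (Cct3 and Cct6a). Log2 changes are differences on the log2(scaled CPM + 1) scale, CuNZ@Gel minus Gel.

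**Figure D1:**
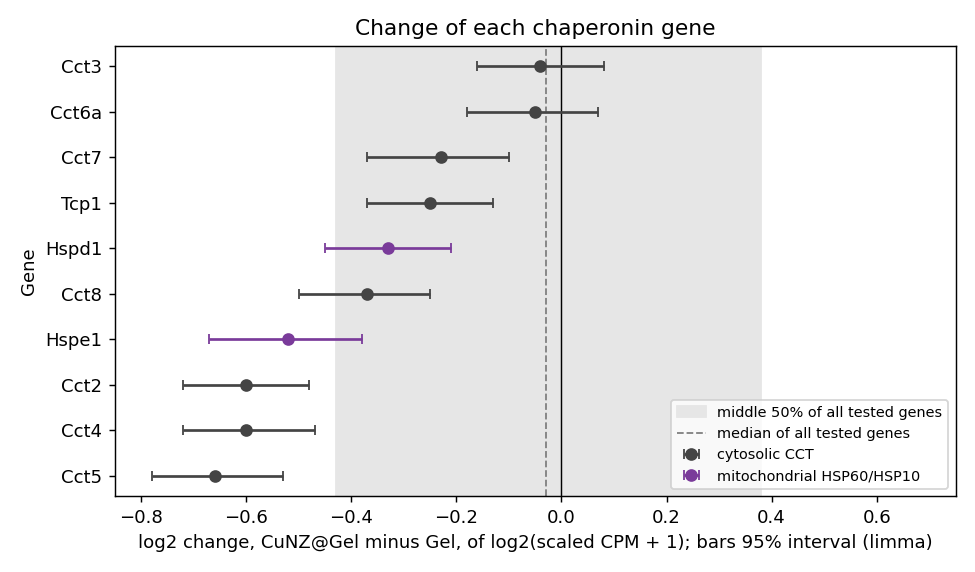
Points give the log2 change of each chaperonin gene (CuNZ@Gel minus Gel, log2 of scaled CPM plus 1, n = 2 libraries per group) with its 95% interval from limma, and the grey band holds the middle 50% of all tested genes. Cct5, Cct4 and Cct2 lie lowest, between -0.66 and -0.6, and the intervals of Cct3 and Cct6a include 0.

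Cct5, Cct2 and Cct4 showed the largest differences. Cct5, the epsilon subunit, stood at 308 and 326 scaled CPM in the CuNZ@Gel libraries and at 511 and 490 in the Gel libraries. Both CuNZ@Gel values lay far under both Gel values, and the log2 change was -0.66 ± 0.06 (SE; limma adjusted p = 4.18e-09), at the 14.7th percentile of the changes of all tested genes. Cct2, the beta subunit, stood at 390 and 376 scaled CPM in CuNZ@Gel and at 571 and 592 in Gel. Its groups were as clearly apart, with a log2 change of -0.6 ± 0.058 (SE; limma adjusted p = 1.2e-08). Cct4, the delta subunit, stood at 225 and 222 scaled CPM in CuNZ@Gel and at 334 and 345 in Gel. Here too the groups did not overlap, with a log2 change of -0.6 ± 0.059 (SE; limma adjusted p = 1.75e-08). These 3 genes passed the threshold in each alternative except the test against a minimum fold, and their changes with 1 library left out lay between -0.7 and -0.57.

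Cct8, Tcp1 and Cct7 differed less. Cct8, the theta subunit, had 306 and 314 scaled CPM in CuNZ@Gel and 417 and 388 in Gel, a log2 change of -0.37 ± 0.061 (SE; limma adjusted p = 1.46e-05). Tcp1, the alpha subunit that gave the complex its older name, had 515 and 530 scaled CPM in CuNZ@Gel and 618 and 622 in Gel. The replicates of Tcp1 lay close together and the log2 change was -0.25 ± 0.058 (SE; limma adjusted p = 0.000718). It no longer passed under scaling by total reads alone (-0.06, limma adjusted p = 0.376). Cct7, the eta subunit, had 252 and 274 scaled CPM in CuNZ@Gel and 324 and 294 in Gel. The gap between its groups was no wider than the gap inside each group, and the log2 change was -0.23 ± 0.065 (SE; limma adjusted p = 0.00369). The call of Cct7 was lost without Gel replicate 1 (-0.16, limma adjusted p = 0.123), with total reads only (-0.04, limma adjusted p = 0.569) and once length and GC content were corrected for (-0.09, limma adjusted p = 0.141), and it was also lost with no filter on low values (limma adjusted p = 0.0745).

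Cct3 and Cct6a did not pass the test. Cct3, the gamma subunit, had 321 and 322 scaled CPM in CuNZ@Gel and 336 and 326 in Gel. These values differed by a few percent, with a log2 change of -0.04 and a 95% interval from -0.16 to 0.08 (limma adjusted p = 0.566). Cct6a, the zeta subunit, had 289 and 297 scaled CPM in CuNZ@Gel and 303 and 305 in Gel, a log2 change of -0.05 with a 95% interval from -0.18 to 0.07 (limma adjusted p = 0.437). These intervals lie wholly above those of Cct2 (-0.72 to -0.48), Cct4 (-0.72 to -0.47) and Cct5 (-0.78 to -0.53). The difference between subunits was not tested. With total reads only, Cct3 and Cct6a had positive changes of 0.15 and 0.14 that passed the threshold (limma adjusted p = 0.0305 and 0.0483). All 10 chaperonin genes, Cct3 and Cct6a included, had no overlap between the groups, which held for 83.2% of all tested genes.

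**Figure D2:**
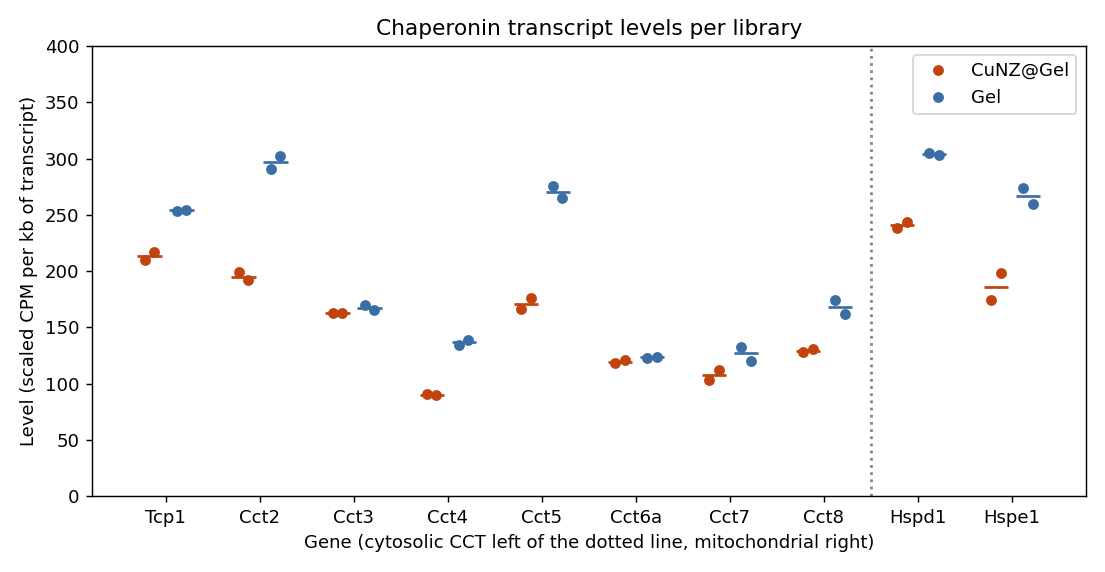
Points give the level of each chaperonin gene in each library as scaled CPM per kb of transcript, with CuNZ@Gel left of Gel, and short lines give the mean of 2 libraries. Cct2, Cct5 and Hspe1 show wide gaps between the groups, whereas the libraries of Cct3 and Cct6a lie almost level.

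Some members overlap genes on the opposite strand, and without strand in counting the reads of both could not be told apart. In GENCODE vM21, whose mouse build is older than that of the files, exons of Cct6a overlap those of Psph, the phosphoserine phosphatase gene on the opposite strand, over 452 bases. The use of strand in counting is not given in the sources used here. Psph had 22.4 and 23.8 scaled CPM in CuNZ@Gel and 94.1 and 92.2 in Gel, and its part in the Cct6a value was not tested. Opposite-strand exon overlaps also joined Tcp1 with Acat3 (571 bases) and Mrpl18 (141 bases), Cct7 with Pradc1 (214 bases), Cct8 with Usp16 (192 bases) and Hspd1 with Hspe1 (112 bases). Usp16 and Mrpl18 rose while Cct8 and Tcp1 fell, with log2 changes of 0.58 and 0.45 (limma adjusted p = 1.2e-06 and 0.000126). Hspd1 and Hspe1 also have processed pseudogenes that could share their reads.

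Hspd1, the HSP60 chamber subunit, had 576 and 592 scaled CPM in CuNZ@Gel and 739 and 734 in Gel. Replicates lay close together and the groups were well apart, with a log2 change of -0.33 ± 0.057 (SE; limma adjusted p = 3.07e-05). Hspe1, the HSP10 lid, had 135 and 153 scaled CPM in CuNZ@Gel and 212 and 202 in Gel. Its CuNZ@Gel libraries were spread more widely but stayed under both Gel libraries, and its log2 change was -0.52 ± 0.069 (SE; limma adjusted p = 1.06e-06). Hspe1 has a transcript of 0.774 kb, the shortest among these genes, and with length and GC content corrected for, its log2 change was -0.18 (limma adjusted p = 0.00606), while that of Hspd1 was -0.32.

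Hspd1 and Hspe1 are known to be transcribed in opposite directions from a shared control region, and the table of RefSeq gene starts (GRCm38.p6) places them so. The 215 bases at chr1:55087933-55088147 lie between the inner start of Hspd1 and the start of Hspe1. They are shown because both genes fell, on the Hspe1 strand and 5′ to 3′, with the motifs of the heat shock element (the binding site of the heat shock factors) in capitals.
Hspd1 and Hspe1 shared interval: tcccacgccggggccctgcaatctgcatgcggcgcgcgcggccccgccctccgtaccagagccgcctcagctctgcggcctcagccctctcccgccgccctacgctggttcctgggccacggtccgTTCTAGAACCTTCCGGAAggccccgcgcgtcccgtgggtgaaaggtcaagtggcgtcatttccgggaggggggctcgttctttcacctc
The capitals form an unbroken run of 18 bases that begins 89 bases before the start of Hspe1. In it GAANNTTC has 1 match and TTCNNGAA has 2, all overlapping, and both motifs read the same on the opposite strand. RefSeq also lists an outermost start of Hspd1 at position 55088243, beyond the start of Hspe1.

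The same motifs were looked for in the 250 bases before each RefSeq start of the CCT genes. The table holds starts for 9 of the 10 members, and Cct4 is the one without. The sequences of Cct5 and Cct2, among the genes with the largest falls, are shown beside that of Cct3, which did not pass the test, each 5′ to 3′ on its gene's strand.
Cct5 (chr15:31601847-31602096, minus strand): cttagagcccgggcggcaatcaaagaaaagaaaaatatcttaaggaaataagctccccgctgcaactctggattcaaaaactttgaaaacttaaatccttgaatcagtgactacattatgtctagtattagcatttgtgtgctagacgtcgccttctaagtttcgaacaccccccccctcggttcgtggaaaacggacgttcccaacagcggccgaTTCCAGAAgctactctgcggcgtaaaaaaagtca
Cct2 (chr10:117063853-117064102, minus strand): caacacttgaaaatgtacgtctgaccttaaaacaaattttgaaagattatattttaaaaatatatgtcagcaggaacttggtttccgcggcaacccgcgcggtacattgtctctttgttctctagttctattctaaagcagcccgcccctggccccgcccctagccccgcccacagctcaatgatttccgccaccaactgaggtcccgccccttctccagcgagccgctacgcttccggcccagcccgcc
Cct3 (chr3:88296885-88297134, plus strand): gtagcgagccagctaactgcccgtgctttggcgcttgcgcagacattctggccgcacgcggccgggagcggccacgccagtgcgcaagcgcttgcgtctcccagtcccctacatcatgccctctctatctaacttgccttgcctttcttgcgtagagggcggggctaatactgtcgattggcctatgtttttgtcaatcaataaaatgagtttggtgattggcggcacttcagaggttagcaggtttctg
In capitals, Cct5 holds TTCNNGAA beginning 34 bases before its outermost start, and Cct2 and Cct3 hold neither motif in these windows. An inner start of Cct2 had GAANNTTC beginning 42 bases upstream, whereas an inner start of Cct5 had neither motif. Tcp1, Cct6a, Cct7 and Cct8 had neither. Of 32841 RefSeq windows of the same length, 6.7% hold GAANNTTC, 7.17% hold TTCNNGAA and 12.8% hold at least 1 of them. The E-box CACGTG, present in 6.02% of windows, was found before the outermost start of Hspd1 and before none of the other starts of the members. The composite element TGATGNAA, bound by C/EBP and ATF proteins and present in 3.45% of windows on either strand, was found before none of the starts of the 9 genes. A match describes letters only, and binding was not measured.

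Relative to length, the mitochondrial and cytosolic chaperonin transcripts were of the same order. Per kb of the longest transcript that is no retained intron, Hspd1 was highest in both groups, at 241 ± 4.73 scaled CPM per kb in CuNZ@Gel and 304 ± 1.34 in Gel (SD, n = 2). In CuNZ@Gel it was followed by Tcp1 (213), Cct2 (195), Hspe1 (186), Cct5 (171), Cct3 (163), Cct8 (129), Cct6a (119), Cct7 (108) and Cct4 (90.1). The libraries of Cct2 and Hspe1 overlapped, as did those of Hspe1 and Cct5, and the other neighbours in that order did not. In Gel the order was Cct2 (297), Cct5 (270), Hspe1 (267), Tcp1 (254), Cct8 (168), Cct3 (167), Cct4 (137), Cct7 (127) and Cct6a (124) after Hspd1. Overlapping neighbours in Gel were Cct5 and Hspe1, Cct8 and Cct3, and Cct7 and Cct6a. The order rests on the length used: per kb of coding sequence Hspe1 stood at 466 in CuNZ@Gel and 669 in Gel, above Hspd1 at 339 and 428. By that length Tcp1 (371) stood above Cct2 (362) and Cct5 (308) in Gel. The coding length of Cct6a was not used here, because this annotation gives its transcripts as noncoding.

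The subunits of CCT are assembled in equal numbers, yet their transcripts were not equal in level, and most shares were not the same in both groups, a difference that was not tested. Within each library the highest CCT gene per kb was 2.32 and 2.42 times the lowest in CuNZ@Gel and 2.36 and 2.51 times in Gel, so that this span overlapped. Cct3 made up 13.7% ± 0.173 of the summed CCT level per kb in CuNZ@Gel and 10.8% ± 0.12 in Gel (SD, n = 2), and Cct6a 10% ± 0.0655 and 8.03% ± 0.116. Tcp1 took 17.9% ± 0.117 and 16.4% ± 0.254, and Cct7 9.05% ± 0.402 and 8.21% ± 0.486. The shares of Cct5 were 14.4% ± 0.363 in CuNZ@Gel and 17.5% ± 0.314 in Gel, those of Cct2 were 16.4% ± 0.652 and 19.2% ± 0.703, and those of Cct4 were 7.58% ± 0.182 and 8.85% ± 0.293. Cct8 had a share of 10.9% in both groups. A share within a library does not depend on how the libraries were scaled, but it rests on the transcript lengths used, as does the span. A gain in share shows a smaller decrease than that of other subunits or a rise.

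**Figure D3:**
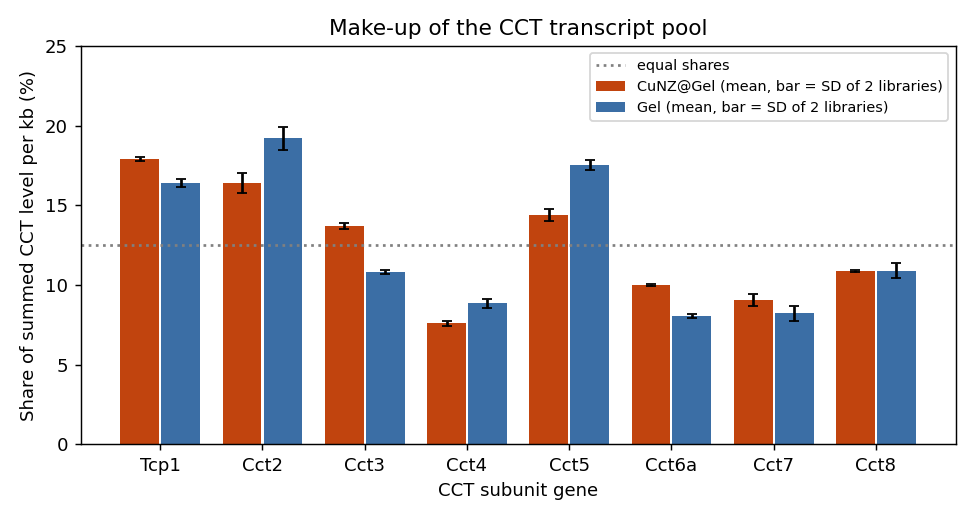
Bars give each subunit's share of the summed CCT transcript level per kb, as the mean of 2 libraries with the SD, CuNZ@Gel left of Gel, and the dotted line marks equal shares. Tcp1, Cct3 and Cct6a take more in CuNZ@Gel, Cct2, Cct4 and Cct5 take less, and Cct8 takes 10.9% in both.

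Set against each other by summed level, the cytosolic and mitochondrial chaperonins stayed in nearly the same proportion, while other measures did not overlap between the groups. Hspd1 and Hspe1 together had 711 and 745 scaled CPM in CuNZ@Gel and 951 and 936 in Gel, and the 8 CCT genes together had 2610 and 2660 in CuNZ@Gel and 3410 and 3360 in Gel. The ratio of the mitochondrial to the cytosolic sum was 0.273 and 0.28 in CuNZ@Gel and 0.279 and 0.278 in Gel, and these groups overlapped. Hspd1 per kb was 1.61 and 1.63 times the mean CCT level per kb in CuNZ@Gel and 1.57 and 1.58 times in Gel, without overlap. In each library the mean log2 value of the mitochondrial pair was also taken from the median of the CCT genes. This gave 0.139 and 0.0785 in CuNZ@Gel and -0.082 and -0.0745 in Gel, without overlap, and was not tested. Inside the mitochondrial pair, Hspd1 per kb was 1.37 and 1.24 times Hspe1 in CuNZ@Gel and 1.11 and 1.16 times in Gel, without overlap. This difference depends on the processing, since with length and GC content corrected for Hspd1 had the larger fall of the pair (-0.32, against -0.18 for Hspe1). The median CCT log2 change exceeded the mean change of the mitochondrial pair by 0.12, a value that turned to -0.05 after correction for length and GC content, and no test was made of it. None of the ratios was tested either. With 2 libraries per group a lack of overlap is common, and it held for 83.2% of all tested genes.

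Prefoldin fell in part. Of the 6 prefoldin genes, 4 fell and 2 did not pass the test, with a median log2 change of -0.35. The counts of this and the following lists stand beside 34.8% lower and 32.2% higher over all tested genes. No list was tested as a set. Pfdn5 had 101 and 118 scaled CPM in CuNZ@Gel and 218 and 197 in Gel (-0.92, limma adjusted p = 8.7e-10). Pfdn6 had 13.4 and 18.1 in CuNZ@Gel and 28.8 and 30.1 in Gel (-0.88, limma adjusted p = 2.71e-06). Pfdn2 and Vbp1, further prefoldin subunits, fell as well (-0.49 and -0.22, limma adjusted p = 0.000104 and 0.0275). With total reads only, 3 prefoldin genes were lower (median -0.17), and with length and GC content corrected for, 3 were lower and 1 higher (median -0.25), Vbp1 losing its call in both (limma adjusted p = 0.764 and 0.117). Pdcl, a phosducin-like protein that works with CCT on G protein beta subunits, went the opposite way, with 79.9 and 84.3 scaled CPM in CuNZ@Gel and 32.5 and 36.8 in Gel (1.22, limma adjusted p = 5.2e-11). It was the only 1 of 3 tested phosducin-like genes to pass, although 2 were higher with total reads only, and 1 was higher and 1 lower with length and GC content corrected for. Of 5 tubulin cofactors, which act on tubulin after CCT, Tbca and Tbcc fell (-0.41 and -0.61, limma adjusted p = 7.48e-05 and 0.000533) and 3 did not pass. With total reads only, 2 cofactors were lower and 1 higher, and with length and GC content corrected for, 1 was lower and 2 higher, without Tbcc (limma adjusted p = 0.262). The chaperonin-like genes Mkks, Bbs10 and Bbs12, linked to cilia, did not pass (log2 changes of 0.25, 0.32 and 0.05, limma adjusted p = 0.0539, 0.116 and 0.825), though Mkks and Bbs10 passed as higher with total reads only (limma adjusted p = 0.00199 and 0.0254), and Cct6b, known from testis, was under the filter, with at most 0.507 scaled CPM.

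Among the main clients of CCT, the actin and tubulin genes, 7 of 12 tested genes rose and 2 fell, with a median log2 change of 0.55. Of all tested genes, 32.2% rose and 34.8% fell by the same rule. On this scale the summed level of the listed genes did not rise, at 5430 and 5450 scaled CPM in CuNZ@Gel and 5630 and 5460 in Gel. The alpha-tubulin genes Tuba4a (109 and 130 scaled CPM in CuNZ@Gel, 36.9 and 34.7 in Gel) and Tuba1a (33.3 and 37.5 in CuNZ@Gel, 6.59 and 7.09 in Gel) rose by 1.7 and 2.21. The beta-tubulin gene Tubb6 and the alpha-tubulin gene Tuba1c rose by 0.96 and 0.81, with limma adjusted p from 3.01e-13 to 5.27e-10 for these 4 genes. The 2 that fell, named after their values were seen, were Tubb5, a beta-tubulin gene (530 and 513 in CuNZ@Gel, 807 and 771 in Gel), and Tubg1, gamma-tubulin (-0.6 and -0.44). Actb, beta-actin, had 2700 and 2640 scaled CPM in CuNZ@Gel and 2930 and 2810 in Gel and did not pass (-0.1, limma adjusted p = 0.151). Actg1, gamma-actin, and Tuba1b, an alpha-tubulin gene, did not pass either (-0.03 and 0.09, limma adjusted p = 0.615 and 0.2). The 7 that rose were all tubulin genes. With total reads only, 9 were higher and 2 lower (median 0.74), the same counts as with length and GC content corrected for (median 0.79). Actg1 and Tuba1b were among the higher genes in both. Tubulin paralogs are alike in sequence, and their reads may have been split in counting. Of 12 other reported clients 5 fell and 4 rose (median -0.21): Plk1, Fzr1 and Cdc20, which drive mitosis or its exit, fell (-0.98, -0.92 and -0.79), and Ppp2r2a, a phosphatase subunit, rose (0.5), with limma adjusted p from 1.23e-08 to 1.22e-06.

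The mitochondrial matrix HSP70 system fell with HSP60. All 7 tested genes of its list, which also holds Trap1, were lower, with a median log2 change of -0.56. By the same rule 34.8% of all tested genes were lower and 32.2% higher. With total reads only, 5 of the list were lower (median -0.38), and with length and GC content corrected for, 7 were lower (median -0.47). Hspa9, the matrix HSP70 itself, had 786 and 800 scaled CPM in CuNZ@Gel and 1450 and 1390 in Gel (-0.84, limma adjusted p = 7.18e-11). Hscb, its partner in iron-sulfur cluster assembly, had 17.9 and 17.5 in CuNZ@Gel and 49.8 and 52.2 in Gel (-1.48, limma adjusted p = 1.74e-11). Dnaja3, a J-domain co-chaperone, and Trap1, the mitochondrial HSP90, fell too (-0.77 and -0.56, limma adjusted p = 2.38e-08 and 1.77e-07). Mitochondrial quality-control proteases were mixed, with 3 of 7 lower and 3 higher (median 0.14). With total reads only, 3 were lower and 4 higher (median 0.32), and with length and GC content corrected for, 2 and 2 (median -0.02). Htra2, Lonp1 and Clpp fell (-1.22, -0.8 and -0.56) and Afg3l2, a subunit of the inner membrane AAA protease, rose (0.75), with limma adjusted p from 2.32e-11 to 2.7e-05. The call of Clpp was lost with length and GC content corrected for (limma adjusted p = 0.0719). Those of Clpx and Yme1l1, which were higher as reported (0.22 and 0.22), were lost as well (limma adjusted p = 0.0657 and 0.718).

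**Figure D4:**
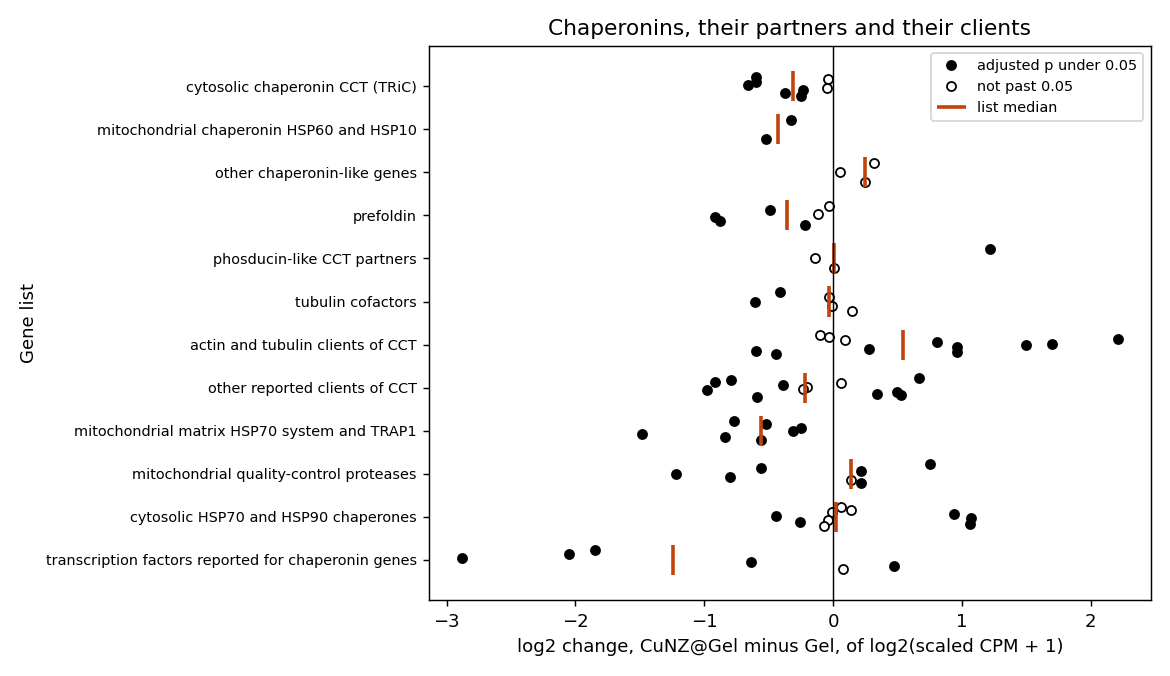
Each point is a tested gene, placed by its log2 change (CuNZ@Gel minus Gel, log2 of scaled CPM plus 1), filled where the adjusted p was under 0.05, and the red line is the median of its list. The CCT, HSP60, prefoldin and mitochondrial HSP70 lists lie left of 0, with medians from -0.56 to -0.31, and the actin and tubulin list has a median of 0.55.

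Cytosolic chaperones outside the chaperonins moved both ways, with 3 of 10 tested genes higher and 2 lower (median 0.02). Over all tested genes 32.2% were higher and 34.8% lower. The balance depends on the processing: 6 were higher and 1 lower with total reads only (median 0.21), and 3 were higher and 4 lower with length and GC content corrected for (median 0.07). Hsp90ab1, the constitutive HSP90, fell, with 2100 and 2170 scaled CPM in CuNZ@Gel and 3020 and 2790 in Gel (-0.44, limma adjusted p = 4.26e-06). Hsp90aa1 and Hsph1, which heat shock induces, rose by 0.94 and 1.06, and so did Hspa1b, inducible HSP70, on the low level of 5.99 and 7.74 scaled CPM in CuNZ@Gel and 2.82 and 2.65 in Gel (1.07, limma adjusted p = 1.44e-05). Dnajb1 of the same list did not pass, with 25.6 and 26.5 in CuNZ@Gel and 25.7 and 26.8 in Gel (-0.01, limma adjusted p = 0.946). Hspa1a and Hspb1 stood at 0 in every library. Of 6 transcription factor genes reported for chaperonin genes, 4 fell and 1 rose. The one that rose was the heat shock factor gene Hsf2 (0.47, limma adjusted p = 0.000592). Hsf1, the main heat shock factor, had 23 and 22.2 scaled CPM in CuNZ@Gel and 36.1 and 35.5 in Gel (-0.64, limma adjusted p = 5.96e-06). Atf5, linked to the mitochondrial unfolded protein response, had 23.1 and 31.7 in CuNZ@Gel and 129 and 102 in Gel (-2.05, limma adjusted p = 2.48e-12), and Atf4 and Ddit3 fell (-1.85 and -2.88). Myc stood near the filter, at 1.58 and 1.4 in CuNZ@Gel and 1.16 and 1.56 in Gel, and did not pass (0.08, limma adjusted p = 0.741).

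**Figure D5:**
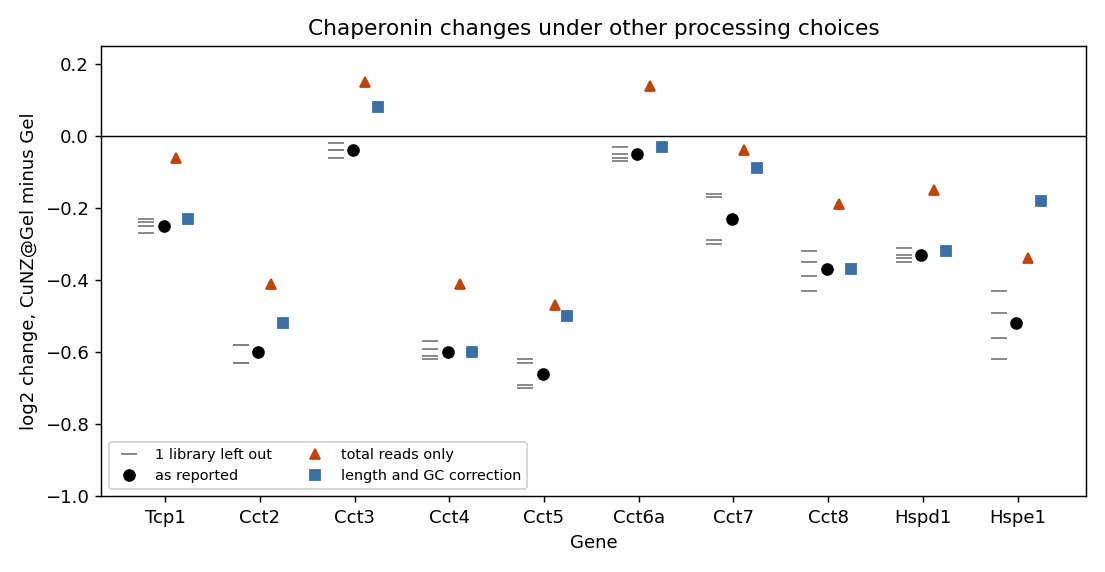
Symbols give the log2 change (CuNZ@Gel minus Gel) of each chaperonin gene as reported, with scaling by total reads alone, and with length and GC content corrected for, and grey dashes give the 4 fits with 1 library left out. Scaling by total reads moves every gene up, Cct3 and Cct6a to 0.15 and 0.14, and Hspe1 stands at -0.18 with length and GC content corrected for, against -0.52 as reported.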

How the data were processed

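RNA was measured in 4 RAW264.7 libraries (CORALL RNA-seq V2 kit, per the labels' protocols). The deposited files hold 1 log2 value per gene symbol and library. The submitters' processing notes name GATK, Salmon, STAR and fastp and the build GRCm39. For their roles and settings, the annotation, the strand setting and the normalization, nothing is stated. The values show that each is log2(x + 1), with x the CPM divided by a factor for each library (1.07 and 1.07 for CuNZ@Gel, 0.937 and 0.936 for Gel). Reads were recovered from the smallest step, of which 93% to 93.7% of values up to 1 were whole multiples within 0.02 reads.

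Genes with at least 1 scaled CPM in 2 libraries were tested with limma 3.58.1 (R 4.3.3) with a variance trend, group as the only term, and Benjamini-Hochberg adjustment over all tested genes at 0.05. Alternatives were other scalings, limma-voom, other filters and pseudocounts, a minimum fold, each library left out, a replicate block and a correction for length and GC content by splines. Transcript lengths came from GENCODE vM21, matched for 94% of the tested genes, and upstream sequences from RefSeq. These references use build GRCm38, so coordinates are given for the printed sequences and the outermost start of Hspd1 alone.

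Members and gene lists were chosen with earlier results of these data known. Named are all 10 members and, from every other list, up to 4 genes past the threshold with the smallest p (all of them in lists of up to 5). Exceptions, named after their values were seen, are Actb, Actg1, Tuba1b, Myc, Hsf2, Mkks, Bbs10, Bbs12, Cct6b, Tubb5, Tubg1, Dnajb1, Hspa1a, Hspb1, Clpx and Yme1l1. Further exceptions of this kind are Cd68, Fcgr1, Cd3e, Ncr1 and genes that overlap a member. Replicate libraries correlated at r = 0.995 across genes, which are not independent replicates, and differed by more than counting noise (chi-square per gene 4.4 for CuNZ@Gel and 3.64 for Gel).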

Additional observations from a re-analysis of the deposited data

How the results depend on the processing

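The 8 lower calls among the chaperonin genes were also found with relative log expression and upper-quartile factors, limma-voom, a pseudocount of 0.1, a filter at 5 scaled CPM and removal of mitochondrial, ribosomal and rRNA-like genes. Against a minimum fold of 1.5, the number of genes called was 1955 over all genes and 0 among the members. With total reads only, 2 members were called higher, Cct3 and Cct6a reversed to 0.15 and 0.14, the CCT median was -0.12 and the mean of Hspd1 and Hspe1 was -0.24. This follows from the scaling, which moved the median of all genes by 0.18. After the length and GC correction the mean of Hspd1 and Hspe1 was -0.25, Cct3 reversed to 0.08 and the CCT median minus that mean reversed to -0.05 (the cause was not tested). With 1 library left out, the CCT median lay between -0.37 and -0.29 and its difference from the mitochondrial mean between 0.08 and 0.14. With the replicate number as a block, 7489 genes were called and the members' calls did not change, but same-numbered libraries deviated at r = -0.116 and the numbers share no stated pairing. A crossed block, added after seeing the data, called 8370 genes and 8 members. Adding pseudogene reads was not run, for want of rows named as copies of a member. Depth and spread over 2 libraries per group left 95% intervals of -0.16 to 0.08 for Cct3 and -0.18 to 0.07 for Cct6a.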

Other observations

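In the ring order known from structural work on yeast and bovine CCT, the subunits CCT5, CCT2, CCT4 and CCT1 follow each other on the side that binds ATP tightly, and CCT3, CCT6, CCT8 and CCT7 make up the other side. This grouping was chosen after the values were seen and was not tested. The log2 changes of the genes of the tight-binding side were -0.66 for Cct5, -0.6 for Cct2, -0.6 for Cct4 and -0.25 for Tcp1. Those of the other side were -0.04 for Cct3, -0.05 for Cct6a, -0.37 for Cct8 and -0.23 for Cct7, so that Cct8 lay under Tcp1 and the sides overlapped.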
